A study of Mus musculus with 2 samples.

Results

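Long intergenic noncoding RNAs (lincRNAs) are transcripts for which an annotation records no protein and which it classes as intergenic, although many overlap coding genes here. The 220 lincRNAs described here are the GENCODE M21 genes of type lincRNA that reached a TPM (a deposited level scaled by transcript length and library size) of at least 1 in both limb libraries, so they were chosen by measured values. They make up 10.4% of 2123 lincRNAs that could have been chosen. GENCODE M21 lists 5854 lincRNAs, of which 2777 had a row in the tables and 234 reached the limit; 5 of these were set aside by name, 5 on the X and Y chromosomes and 4 in the Hox clusters. The other 1903 eligible lincRNAs were under the limit in at least 1 library and serve below as a comparison, as do 12247 protein-coding genes and 323 antisense genes at the same limit. Each lincRNA was set beside its nearest protein-coding gene.

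The series measured total RNA longer than 200 nt from the limbs of B6NCrl mice at embryonic day 12.5 (E12.5), with male and female embryos mixed. There was 1 group of 2 biological replicates, a pool of 88 embryos and a pool of 68, each starting from 10 ng of RNA. Forelimb and hindlimb are not told apart in the labels, no treatment or mutation is named, and there is no control group, so no comparison between conditions was possible. The libraries held 29810026 and 29938721 expected counts. All 10 listed limb mesenchyme markers reached 1 TPM, with means from 7.69 TPM to 395 TPM, and none of 10 markers of other organs did, the highest being 0.63 TPM. In pooled tissue, fewer cells that make an RNA and less of it per cell cannot be told apart.

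LincRNAs are usually transcribed by RNA polymerase II, capped and often spliced like messenger RNAs, but they are on average scarcer and more restricted to particular tissues. Some act as RNA, as Neat1 does in building nuclear paraspeckles, some are hosts from which snoRNAs or microRNAs are cut, and for others transcription itself, near an enhancer or promoter, is thought to matter more than the product. Many start close to the promoter of a coding gene and run away from it. In the limb, transcripts of this kind lie beside patterning genes such as Hand2.

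The levels were low and few genes dominated. The median of the 220 lincRNAs was 3.28 TPM, with the middle of the distribution between 1.94 TPM and 7.003 TPM, against a median of 22.0 TPM for the protein-coding genes and 2.57 TPM for the antisense genes, all at the same limit. Means were under 2 TPM for 59 lincRNAs, from 2 to under 10 TPM for 119, and at least 10 TPM for 42. Together the 220 held 0.296% of replicate 1's counts and 0.331% of replicate 2's, or 0.176% and 0.183% with Malat1 left out. The median lincRNA rested on 84.2 counts in replicate 1 and 93.9 in replicate 2, 93 had at least 100 counts in both, and 8 had under 10 in either. Members came from 19 chromosomes, had a median length of 1420 nt, and 26 had a single exon.

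**Figure D1:**
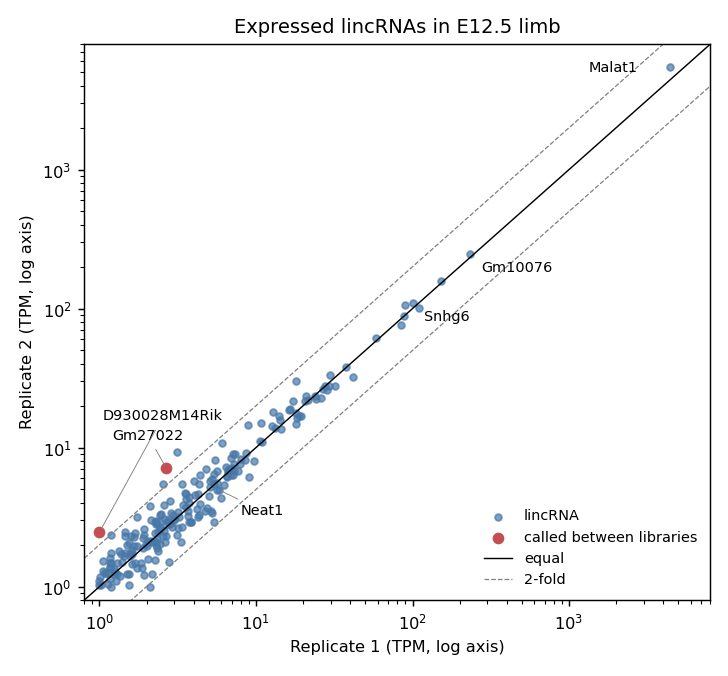
TPM of each of the 220 expressed lincRNAs in replicate 1 (x axis) and replicate 2 (y axis), both on log axes, with the line of equality and dashed 2-fold lines. The cloud lies between the 2-fold lines for all but 5 genes, Malat1 stands far to the upper right at 4430 and 5491 TPM, and the red points are the 2 genes called different between libraries.

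Malat1 was the highest lincRNA. This nuclear RNA, abundant in most mammalian cells and found at nuclear speckles, was listed at 4430 TPM in replicate 1 and 5491 TPM in replicate 2. The next 4 were the only others at 100 TPM or more on average. Gm10076 was at 233 TPM and 248 TPM. 1810058I24Rik was at 152 TPM and 157 TPM. RefSeq classes Gm10076 as a pseudogene and 1810058I24Rik as protein-coding. The latter is also known as Stmp1, the gene of a small mitochondrial protein. Gm7292 had 110 TPM and 101 TPM. Snhg6, the host of the snoRNA Snord87, had 101 TPM and 110 TPM. On the deposited TPM, the libraries of Malat1, Gm10076 and 1810058I24Rik lay above those of every lower gene, and the ranges of Gm7292 and Snhg6 overlapped. That order depends on the transcript models: with every count placed on its longest transcript, 1810058I24Rik would be at 49.5 TPM and 50.7 TPM, below Gm7292, at 110 TPM and 101 TPM, and Snhg6, at 73.4 TPM and 77.6 TPM.

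Next by mean TPM stood several lincRNAs with studied roles. 2900097C17Rik, which RefSeq names Norad and which binds Pumilio proteins and is linked to genome stability, was at 89.2 TPM and 106 TPM. Its range overlapped those of Gm7292 and Snhg6. On the longest transcript it would be unchanged and above Snhg6. Lockd, transcribed downstream of the cell-cycle inhibitor gene Cdkn1b, was at 88.8 TPM and 88.7 TPM. Snhg20 was at 84.3 TPM and 76.3 TPM, and its range overlapped neither that of 2900097C17Rik nor that of Lockd on the deposited TPM. Snhg20 would be at 24.9 TPM and 23.2 TPM on its longest transcript. 1700020I14Rik, which RefSeq names Oip5os1 and which is known as Cyrano, an RNA that directs the decay of miR-7, was at 58.8 TPM and 61.8 TPM. The last of the 12 highest were lower. Tmem250-ps had 37.5 TPM and 37.98 TPM and is protein-coding in RefSeq. 5430416N02Rik had 41.9 TPM and 32.2 TPM. Epb41l4aos, which carries a snoRNA gene, had 29.7 TPM and 33.1 TPM. The range of 5430416N02Rik overlapped those of the other two. On the longest transcript 5430416N02Rik would be at 9.66 TPM and 7.84 TPM, and 1700020I14Rik at 38.2 TPM and 38.9 TPM.

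The Malat1 level rested on a short transcript model. The gene lies at chr19:5795690-5802672 on the minus strand (GRCm38, GENCODE M21), and its full-length transcript of 6983 nt is a single unit that fills that span. Of the Malat1 counts, 31787 in replicate 1 (89.0%) and 39719 in replicate 2 (89.8%) were assigned to a 485-nt model at the 5′ end of the gene, with a first exon of 434 nt (chr19:5802238-5802671) and a second of 51 nt (chr19:5801916-5801966). The full-length transcript received 3877 and 4512 counts. On the TPM scale the short model stood at 4396 TPM and 5455 TPM, and the full-length one at 30.1 TPM and 34.8 TPM. With every Malat1 count placed on the longest transcript, the gene would be at 277 TPM and 341 TPM, 16.1-fold lower and still the highest of the 220 by that measure. The junction that sets the short model apart is shown because the full-length transcript does not hold it as 1 run; the tables do not say how many counts crossed it. The 30 bases on each side, from the GENCODE M21 transcript sequence, are given with the second exon in capitals.

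Malat1 485-nt junction: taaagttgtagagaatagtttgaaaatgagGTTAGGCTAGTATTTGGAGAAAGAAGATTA

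**Figure D2:**
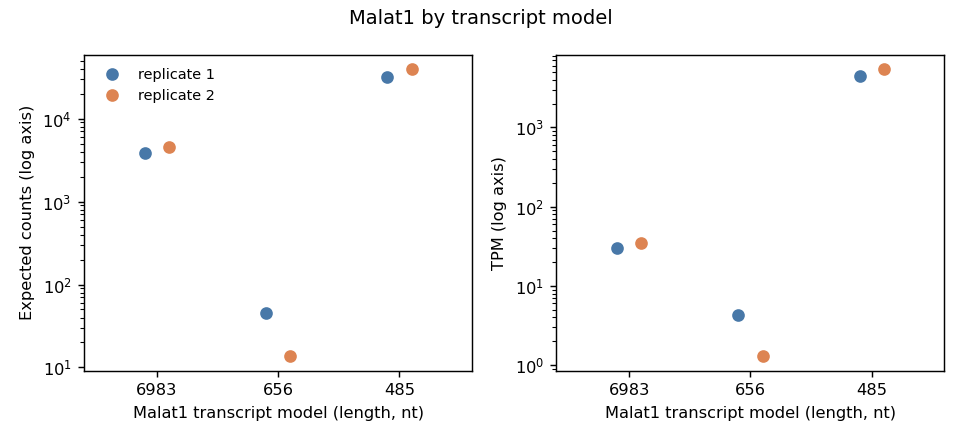
Expected counts (left) and TPM (right), both on log axes, for the 3 Malat1 transcript models with counts, by transcript length in nt. Points are single libraries. The 485-nt model was highest on both scales, at 31787 and 39719 counts, above the 6983-nt transcript at 3877 and 4512.

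Other genes with several models were also split. Of the 220, 142 had 1 transcript in the tables and 78 had at least 2. Among the 78, the highest transcript was the same in both libraries for 67 and different for 11, and its median share of the gene's TPM was 74.6% in replicate 1 and 77.5% in replicate 2. It was the longest transcript in both libraries for 31 of them. Neat1 is the example where models differ most in kind, since its short form is made in many cells and its long form is the paraspeckle scaffold. The 20771-nt form had 358 and 409 counts and the 3004-nt form 267 and 206. Per length the order turned around, with 0.93 TPM and 1.05 TPM for the long form and 4.91 TPM and 3.76 TPM for the short one. The forms share their 5′ sequence, so the split depends on how shared reads were divided. In Pantr1, a lincRNA beside the neural gene Pou3f3, the highest model was a 546-nt one in replicate 1 and a 499-nt one in replicate 2. Pantr1 would be at 0.56 TPM and 0.51 TPM on its longest transcript. On the longest transcript 205 of the 220 stayed at 1 TPM in both libraries and 15 did not, and 20 were at least 2-fold lower than deposited. By that measure Neat1 would be at 1.62 TPM and 1.58 TPM, Miat at 2.85 TPM and 2.95 TPM, Carmn at 4.36 TPM and 4.52 TPM, and Pvt1 at 1.01 TPM and 1.19 TPM.

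The list of 89 named lncRNAs from the literature gave 27 lincRNAs that could have been chosen, of which 15 reached the limit and 12 did not. Malat1, Snhg6, Lockd, Snhg20 and Epb41l4aos have been given. Snhg12, a host of 4 small nucleolar RNA genes, was at 19.5 TPM and 16.8 TPM. Snhg18 was at 18.2 TPM and 16.4 TPM, and their ranges overlapped. Dubr, an RNA studied in muscle differentiation, was at 7.70 TPM and 6.84 TPM. Mir17hg, the host of the miR-17-92 cluster, was at 7.18 TPM and 6.40 TPM. Carmn, studied in the cardiac and smooth muscle lineages, was at 6.62 TPM and 6.89 TPM. Dubr, Mir17hg and Carmn overlapped in range. Neat1 was at 5.84 TPM and 4.95 TPM. Miat was at 5.04 TPM and 4.48 TPM. Bvht, known from cardiac mesoderm and the neighbour of Carmn on chromosome 18, was at 3.76 TPM and 4.00 TPM. The lowest were Pvt1, downstream of Myc, at 2.76 TPM and 2.91 TPM, and Pantr1 at 2.59 TPM and 2.52 TPM. Among those under the limit, Mir155hg was at 0.82 TPM and 1.41 TPM, Mir9-3hg at 0.91 TPM and 0.70 TPM, and Trp53cor1 (lincRNA-p21) at 0.78 TPM and 0.46 TPM. Halr1, Mir142hg and Otx2os1 were listed at 0 in both.

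Small RNA genes lay inside 14 of the 220 lincRNAs on the same strand (6.36%), against 39 of the lincRNAs under the limit (2.05%). The 14 hosts carried 26 small RNA genes, 10 of them snoRNAs or scaRNAs (which guide modification of ribosomal and spliceosomal RNA) in 7 hosts and 16 miRNAs in 8 hosts, with Snhg20 in both sets. The snoRNA and scaRNA hosts had a median of 26.5 TPM and the hosts of miRNAs alone 3.81 TPM. Besides the Snhg genes and Epb41l4aos, these were 2900076A07Rik at 26.8 TPM and 26.2 TPM and 2700038G22Rik, which holds Snord93, at 21.6 TPM and 22.2 TPM. The hosts of miRNAs alone ran from Mir17hg at the top to Gm28653, which holds Mir206 and Mir133b, at 1.17 TPM and 1.14 TPM. 4631405K08Rik, the host of Mir205, an epithelial miRNA, was at 5.65 TPM and 5.61 TPM. 6720427I07Rik, which holds 3 let-7 genes, was at 4.34 TPM and 3.28 TPM. Host levels say nothing of the mature miRNAs, which are shorter than the RNA selected here.

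The mature miRNAs of these hosts were taken from RefSeq (GRCm38.p6), which had sequences for 15 of the 16 miRNA genes, 29 mature forms with 24 different seeds. Those of the Mir17hg and let-7 hosts are shown because they share seeds within a host; capitals mark the seed, bases 2 to 8, which sets most of a miRNA's target choice.

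miR-17-5p: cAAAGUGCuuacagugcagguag

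miR-20a-5p: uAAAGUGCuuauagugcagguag

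miR-18a-5p: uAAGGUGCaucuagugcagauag

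miR-19a-3p: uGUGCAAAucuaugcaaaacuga

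miR-19b-3p: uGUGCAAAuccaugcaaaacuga

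miR-92a-3p: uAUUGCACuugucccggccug

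let-7a-5p: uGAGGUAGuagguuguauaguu

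let-7d-5p: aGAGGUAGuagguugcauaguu

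let-7f-5p: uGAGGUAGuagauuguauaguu

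Within Mir17hg (chr14:115042879-115046727, plus strand), miR-17-5p and miR-20a-5p shared the seed AAAGUGC, and miR-19a-3p and miR-19b-3p shared GUGCAAA. miR-18a-5p and miR-92a-3p had seeds of their own. The 3 let-7 forms of 6720427I07Rik, on chromosome 13, shared GAGGUAG. The Gm28653 and 4631405K08Rik forms, known from muscle and from epithelium, are shown for contrast, and neither shares a seed with the others.

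miR-206-3p: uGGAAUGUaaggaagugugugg

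miR-133b-3p: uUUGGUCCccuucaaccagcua

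miR-205-5p: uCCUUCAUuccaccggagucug

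Expressed lincRNAs lay close to protein-coding genes. Of the 220, 83 (37.7%) overlapped the gene body of their nearest protein-coding gene, 67 on the opposite strand and 16 on the same one, and 72 more (32.7%) lay within 5000 bases of it. Among the lincRNAs under the limit, 11.9% overlapped and 15.9% lay within 5000 bases. The median gap was 232.5 bases for the expressed lincRNAs, 28971 bases for those under the limit and 2443 bases between expressed protein-coding genes and their nearest neighbours. An exon of 63 of the 220 lincRNAs (28.6%) lay on an exon of a protein-coding gene, 58 of them on the opposite strand, against 7.73% of those under the limit. Whether counting used strand is not recorded in the labels or headers, so reads of such a lincRNA and of the coding gene across from it cannot be told apart. Unspliced RNA of a coding gene could also add to a lincRNA within its introns, which was not tested.

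**Figure D3:**
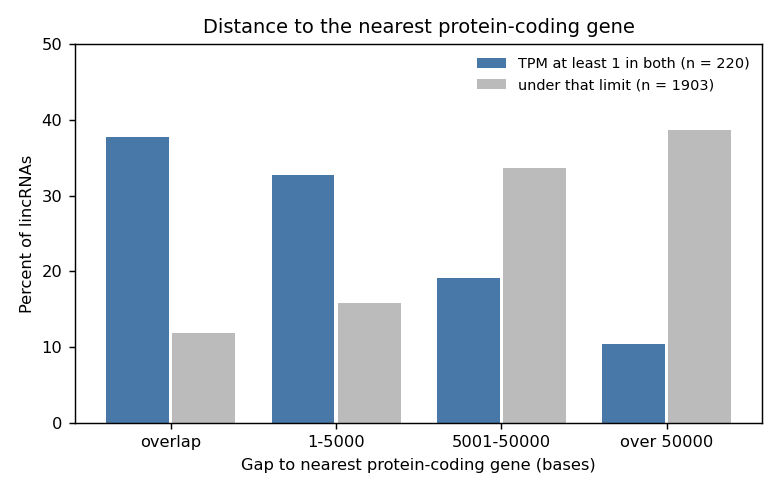
Percent of lincRNAs (y axis) by gap in bases to the nearest protein-coding gene (x axis), for the 220 expressed lincRNAs and the 1903 under the limit. The expressed lincRNAs fall mostly in the first 2 classes (37.7% and 32.7%) and the others in the last 2 (33.6% and 38.7%).

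The nearest protein-coding genes were themselves mostly expressed. They reached 1 TPM in both libraries for 186 of the 220, a share of 84.5% against 70.8% next to lincRNAs under the limit, 75.5% next to expressed protein-coding genes and 93.8% next to expressed antisense genes. Their median level was 21.8 TPM, against 8.09 TPM, 13.2 TPM and 29.7 TPM in the same order. These differences between classes were not tested. The share was 89.2% where the gene bodies overlapped, 90.3% at gaps up to 5000 bases, 73.8% from there up to 50000 bases and 69.6% beyond. Next to lincRNAs under the limit the shares were 63.3%, 76.8%, 67.45% and 73.6% in the same order of distance. The expressed lincRNAs were thus the lower class beyond 50000 bases, where there were 23 of them. The classes also differed in distance, so 84.5% against 70.8% is not a comparison at equal distance. Among the 157 expressed lincRNAs with no exon on a coding exon the share was 80.9%.

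In most pairs the coding gene was the higher partner. At least a 2-fold difference in both libraries, on the log2(TPM + 0.1) scale, put 143 lincRNAs below their neighbour (65.0%) and 48 above it (21.8%), and 29 were neither. For expressed protein-coding genes against their own neighbours the shares were 26.3% below and 49.2% above, for antisense genes 78.3% and 8.67%, and for lincRNAs under the limit 80.1% and 1.31%. The TPM limit that chose the lincRNAs enters these ratios, so the shares are a description. The median log2 ratio of lincRNA to neighbour was -2.09. Without the 63 lincRNAs on coding exons, 57.3% were below and 27.4% above. Of the 48 above, many stood beside genes near 0, and with the nearest expressed coding gene as partner 20 of the 220 were above. Across the 220 pairs the log levels of the partners had a Pearson's r of 0.024 and a Spearman's rho of 0.027, given as a description since all pairs come from the same libraries.

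**Figure D4:**
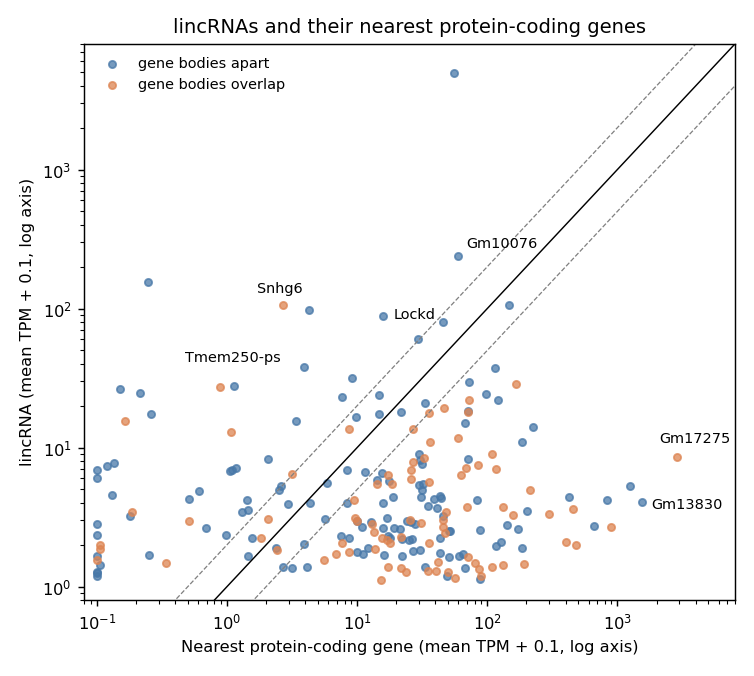
Mean TPM + 0.1 of each of the 220 lincRNAs (y axis) against that of its nearest protein-coding gene (x axis), both on log axes, with the line of equality and dashed 2-fold lines. Colour tells overlapping gene bodies from separate ones; most points lie below the lines, Snhg6 stands far above them, and Gm13830 and Gm17275 far below.

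Several lincRNAs stood far above an expressed neighbour. Snhg6 was 5.33 on the log2 scale above Mcmdc2, a meiotic gene on the other strand that it overlaps, at 2.07 TPM and 3.08 TPM. An exon of Snhg6 lies on a coding exon of the opposite strand, and the part of shared reads in these levels was not tested. 2900097C17Rik (Norad) was 4.53 above Cnbd2, at 3.86 TPM and 4.41 TPM. In both pairs the lincRNA exceeded its neighbour in both libraries by far more than the libraries differed. Tmem250-ps was 3.27 above Nacc2, 1700048O20Rik 2.61 above Fam198a, and Gm26825 2.18 above Steap1. Lockd was 2.50 above Cdkn1b, which had 15.2 TPM and 15.9 TPM and ends 3579 bases from it. Gm10076 was 2.04 above Spry2, although 209736 bases away.

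At the other end the neighbours were abundant, broadly expressed genes. Gm13830, at 2.54 TPM and 5.45 TPM, started 121 bases from Dynll1, a dynein light chain gene at 1560 TPM and 1530 TPM, a log2 ratio of -8.66. Gm13830 would be at 0.43 TPM and 0.88 TPM on its longest transcript. Gm17275, at 6.07 TPM and 10.8 TPM, overlapped the histone variant gene H3f3a, at 2756 TPM and 2998 TPM, with a ratio of -8.45. Gm26836 stood -8.38 from Ywhae, 5830454E08Rik -7.94 from the ribosomal protein gene Rpl14, and Gm12319 -7.92 from Pfn1. Gm4425 stood -7.64 from Ywhaq, and Gm6297 -7.58 from Dnaja1. Exons of Gm17275 and Gm6297 lie on coding exons of the opposite strand, and the part of shared reads in their levels was not tested.

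A head-to-head pair here is a lincRNA and a protein-coding gene on opposite strands whose starts lie within 5000 bases and point away from each other. There were 48 such lincRNAs (21.8% of the 220), against 184 (9.67%) under the limit. The median distance between starts was 232.5 bases, and it was at most 1000 bases for 38 and at most 300 for 29. The coding partner reached 1 TPM in both libraries for 44 of the 48 (91.7%), against 77.2% of partners of lincRNAs under the limit. The partners had a median of 17.3 TPM and the lincRNAs 2.62 TPM, against 3.53 TPM for the other expressed lincRNAs. In 34 pairs the lincRNA was at least 2-fold below in both libraries, in 6 above and in 8 neither.

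The 8 closest pairs showed how unequal the sides could be. 1110019D14Rik, at 3.52 TPM and 4.70 TPM, started 8 bases from 2610001J05Rik, at 82.4 TPM and 83.7 TPM. Gm13483, at 2.45 TPM and 2.90 TPM, started 9 bases from Mmadhc, a cobalamin metabolism gene at 142 TPM and 141 TPM. 2010015M23Rik, at 4.08 TPM and 4.58 TPM, started 13 bases from Srsf1, a splicing factor gene at 434 TPM and 420 TPM. In these 3 the coding side was 20.2-fold, 52.8-fold and 98.7-fold higher on mean TPM. A430105J06Rik was at 1.45 TPM and 1.76 TPM beside Rrp15 at 64.0 TPM and 65.1 TPM. 4930558J18Rik was at 1.56 TPM and 1.66 TPM beside 1700066M21Rik at 11.2 TPM and 10.8 TPM, and 2010320M18Rik at 14.1 TPM and 15.9 TPM beside Pik3r2 at 66.4 TPM and 67.7 TPM. Gm16001, at 6.95 TPM and 6.31 TPM, was less than 2-fold below Ogfod2, at 12.1 TPM and 10.6 TPM. A930029G22Rik went the other way, at 2.33 TPM and 2.21 TPM beside Akain1, which was listed at 0 in both.

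Stretches between such starts are shown for pairs that range from near equality to a large difference, chosen after their values were seen. Snhg18 and the axon guidance gene Sema5a were at 18.2 and 16.4 TPM against 16.4 and 12.7 TPM. Gm14230 was at 32.0 TPM and 27.5 TPM against 73.8 TPM and 70.4 TPM for Tgif2, a homeobox repressor gene. Srsf1 and Dynll1, given above, lay at the other extreme. The sequences are from RefSeq (GRCm38.p6), read 5′ to 3′ on the strand of the coding gene and ending before its first base. Lower case is the start of the lincRNA gene on the opposite strand, and capitals are the bases between the GENCODE starts.

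Snhg18-Sema5a (chr15:32244563-32244809, plus strand): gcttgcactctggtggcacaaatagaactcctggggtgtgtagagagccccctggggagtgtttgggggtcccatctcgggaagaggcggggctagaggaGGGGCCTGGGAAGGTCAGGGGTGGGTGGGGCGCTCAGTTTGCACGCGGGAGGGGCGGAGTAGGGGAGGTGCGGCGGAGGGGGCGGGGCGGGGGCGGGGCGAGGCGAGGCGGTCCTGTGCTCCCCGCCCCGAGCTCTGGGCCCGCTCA

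Gm14230-Tgif2 (chr2:156839757-156840006, plus strand): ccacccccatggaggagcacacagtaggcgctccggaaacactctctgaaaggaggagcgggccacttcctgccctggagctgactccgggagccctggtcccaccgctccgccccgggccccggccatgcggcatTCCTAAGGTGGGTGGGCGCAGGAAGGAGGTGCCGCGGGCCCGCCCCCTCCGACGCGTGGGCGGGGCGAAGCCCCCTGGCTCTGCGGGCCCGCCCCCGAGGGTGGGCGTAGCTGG

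Gm13830-Dynll1 (chr5:115301000-115301240, minus strand): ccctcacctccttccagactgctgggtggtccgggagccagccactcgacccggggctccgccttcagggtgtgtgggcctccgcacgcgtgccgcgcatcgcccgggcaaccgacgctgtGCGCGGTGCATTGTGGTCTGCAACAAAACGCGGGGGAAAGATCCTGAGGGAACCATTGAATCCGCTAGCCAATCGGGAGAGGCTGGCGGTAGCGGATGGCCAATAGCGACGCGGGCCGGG

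2010015M23Rik-Srsf1 (chr11:88047123-88047372, plus strand): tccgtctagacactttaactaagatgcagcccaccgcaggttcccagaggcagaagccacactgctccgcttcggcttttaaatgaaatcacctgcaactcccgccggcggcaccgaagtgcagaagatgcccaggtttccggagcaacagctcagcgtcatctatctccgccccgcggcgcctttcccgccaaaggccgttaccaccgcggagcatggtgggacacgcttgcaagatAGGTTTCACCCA

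These stretches were rich in CpG, the dinucleotide that most of the genome has lost, with 17 CpG in the Sema5a stretch, 22 in that of Tgif2, 25 in that of Dynll1 and 19 in that of Srsf1. Between the starts there were 15, 13, 12 and 0 in that order, the last over only 12 bases. The bases between Gm13830 and Dynll1 held CCAAT, the motif of the NF-Y factor, at 2 places, both on the Dynll1 strand, and the other 3 held none on either strand. TATAAA was found between the starts of none of the 4.

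Promoter windows of 300 bases, 250 before and 50 after the RefSeq start, were read for the 57 of 220 lincRNAs whose RefSeq start lay within 100 bases of the GENCODE start. Their median GC content was 59.0% and their median ratio of observed to expected CpG was 0.77. A ratio of at least 0.6 was reached by 42 of the 57 (73.7%), by 76.1% of 7213 windows of expressed protein-coding genes, by 13.99% of 586 windows of lincRNAs under the limit and by 35.8% of all 32851 windows in the table. By this measure their windows were nearer to those of coding genes than to those of other lincRNAs, a difference that was not tested. A ratio of at least 0.6 was reached by 15 of 17 head-to-head lincRNAs (88.2%) and by 27 of the 40 others (67.5%). Where a coding gene starts within 250 bases upstream, the window also holds bases around that start. Gm13483, for example, starts 9 bases from Mmadhc. The CpG content of such windows cannot be assigned to the lincRNA alone, and their part in these shares was not tested. TATAAA on either strand was in 4 of the 57 (7.02%), those of 2610035D17Rik, 9330104G04Rik, C230035I16Rik and C920006O11Rik. It was in 6.71% of windows of expressed protein-coding genes, 14.2% of those of lincRNAs under the limit and 13.6% of all windows. CCAAT on either strand was in 26 (45.6%), against 40.6%, 37.7% and 37.4% in the same order.

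**Figure D5:**
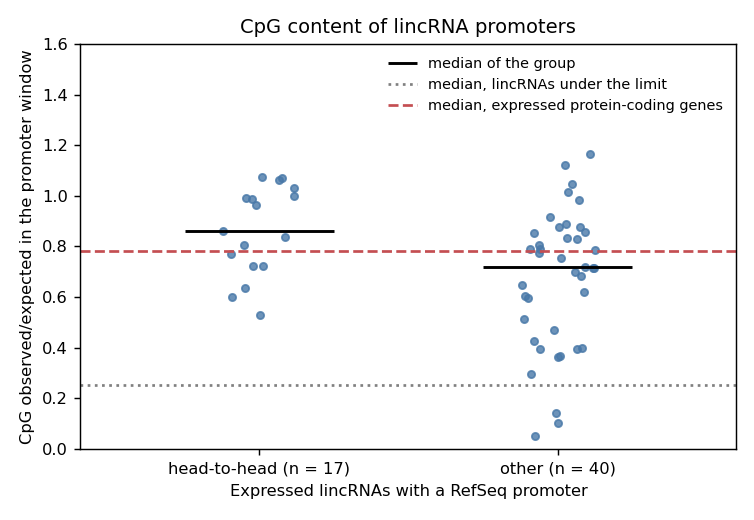
Ratio of observed to expected CpG (y axis) in the promoter window of each of 57 expressed lincRNAs, split into 17 head-to-head and 40 others (x axis; points are spread sideways for display). Black bars are group medians, 0.86 and 0.72, the dashed line the median of expressed protein-coding genes at 0.78 and the dotted line that of lincRNAs under the limit at 0.25. Windows of head-to-head lincRNAs can hold the start of the coding partner.

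Regulators of limb development were the nearest coding gene of 9 of the 220 lincRNAs (4.09%), a share close to the 4.73% among lincRNAs under the limit. All 9 regulators were at 1 TPM or more in both libraries, and 8 of the lincRNAs were at least 2-fold below. Gm26523, at 29.1 TPM and 27.8 TPM, lies within Prrx1, a homeobox gene of early limb mesenchyme at 168 TPM and 163 TPM, on the same strand and with no exon on a coding exon. Gm26735, at 8.64 TPM and 9.16 TPM, overlaps Sox4, a progenitor transcription factor gene at 109 TPM and 109 TPM, with an exon on the opposite strand. Gm28760, at 3.21 TPM and 3.18 TPM, has an exon on the same strand as one of Pitx1, the hindlimb identity gene at 142 TPM and 173 TPM, with starts 97 bases apart, so its level is uncertain. Reads of Gm26735 or Gm28760 and of their partners cannot be told apart. Unspliced Prrx1 RNA, where present in total RNA, could also add to the Gm26523 level, which was not tested.

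The other 6 had no overlap with their regulator. Gm26645, at 1.84 TPM and 1.48 TPM, starts 1940 bases from Gli3, the hedgehog pathway factor of digit patterning, at 44.2 TPM and 42.0 TPM. 2700033N17Rik, at 5.15 TPM and 3.49 TPM, starts 1605 bases from the start of Meis2, a proximal limb factor gene, at 20.0 TPM and 17.3 TPM. 5033428I22Rik, which RefSeq names Hdnr and which is known as Handsdown, was at 2.31 TPM and 2.81 TPM and lies 7485 bases past Hand2, a posterior limb factor gene, at 16.8 TPM and 21.1 TPM. Replicate 2 was the higher library for both partners of that pair. Pvt1 was -3.14 from Myc on the log2 scale, and Gm5860, at 1.14 TPM and 1.04 TPM, was 187365 bases from Nfib, at 48.2 TPM and 49.5 TPM. Gm10076 was the 1 above its regulator, Spry2, an inhibitor of FGF signalling, at 50.3 TPM and 67.8 TPM.

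The 2 libraries gave similar levels for the 220 lincRNAs. These were chosen by TPM in both libraries, which left out genes low in 1, such as Gm16702 at 0.96 TPM and 1.86 TPM. Their agreement and their share of calls below are thus a description. The median absolute log2 difference was 0.21, and 199 of the 220 were within 1.5-fold. Among the 5 at least 2-fold apart, named here after their values were seen, Gm27022 had 31.0 counts (2.68 TPM) in replicate 1 and 82.3 counts (7.08 TPM) in replicate 2. D930028M14Rik had 17 counts (1.00 TPM) and 42 counts (2.46 TPM). Both lie on the opposite strand within a coding gene, Hnrnpr and Pou2f2. An exon of Gm27022 lies on a coding exon of the opposite strand, and the part of shared reads in its level was not tested. D930028M14Rik has no exon on a coding exon. An exact binomial test over 18580 genes sets 1 library against the other and takes in counting error only, with no term for the spread between pools, so its calls are differences between these libraries beyond counting error. It called 313 genes, 1.68%, with 0.958% higher in replicate 2 and 0.727% higher in replicate 1. Of the 219 lincRNAs with enough counts it called 2 (0.913%), Gm27022, 2.60-fold higher in replicate 2, and D930028M14Rik, 2.41-fold higher. Whether either differs beyond the usual spread between pools cannot be tested with 1 library on each side. The other 3 were not called. Gm13830 is given above, 4930557F10Rik had 2.11 TPM and 1.00 TPM, and Gm29362, a 133-nt gene with 2 and 6 counts, was under the count limit of the test.

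LincRNAs and their neighbours were also compared in how they differed between the libraries. With at least 50 counts on each side there were 124 pairs, with a Pearson's r of 0.14 and a Spearman's rho of 0.18 for the log2 change between libraries. For the 98 of these at gaps up to 5000 bases the values were 0.15 and 0.16. Every point shares the same 2 libraries, and part of the pairs share exons, so these values are a description.

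At the limit itself, B230217O12Rik at 1.00 TPM and 1.03 TPM, Gm26764 at 1.00 TPM and 1.10 TPM and Gm28050 at 1.18 TPM and 1.00 TPM were just inside. Gm17399 at 0.99 TPM and 0.98 TPM, Gm26675 at 0.97 TPM and 1.19 TPM and Gm16702 at 0.96 TPM and 1.86 TPM were just outside. Gm28050 rested on 7.76 and 6.59 counts, and Gm16702 on 41 and 80, so the order at the limit follows length as well as counts.

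RefSeq did not class every one of these genes as noncoding. Of 122 that matched it by name or synonym, 108 were long noncoding, 10 protein-coding, 1 a pseudogene and 3 transcribed pseudogenes, and 98 had no match. A match needed an overlapping place but not the same strand, and 11 were by synonym. Among the protein-coding matches, D930016D06Rik, 4930516B21Rik, Gm38399 and 4732487G21Rik were synonyms of Thoc2l, Acvr2b, Nav1 and Gpatch2l. Of these, 4732487G21Rik lies on the strand opposite to Gpatch2l. For such matches the class is that of the RefSeq gene and may not be that of the lincRNA. Besides Gm10076, the pseudogenes were 4632415L05Rik, Gm4425 and Gm16386, named after their class was seen. The protein-coding ones had a median of 4.02 TPM, with 1810058I24Rik and Tmem250-ps the only ones above 10 TPM. Counts were whole in both libraries for 4632415L05Rik (296 and 345) and Gm16386 (57 and 50). They were not for Gm4425 (192.6 and 230.3) or Gm10076, so the levels of that pair depend on how shared reads were divided. Whole-number counts in both libraries, within 0.005, were found for 65.5% of the 220, against 72.9% of protein-coding and 40.6% of antisense genes, so the levels of the other lincRNAs include reads split between genes.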

How the data were processed

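Total RNA of 2 replicate limb libraries was analysed from deposited gene and transcript tables. The deposited expected counts are estimated counts that need not be whole, as the file headers name them. The deposited TPM values use an effective length equal to length minus 99 nt. The deposited FPKM values and the deposited percent values (share of a gene's TPM per transcript) served as an alternative and for transcript shares, per the file headers. The deposited text files name mm10 and GENCODE M4 as build and annotation. Aligner, quantifier and strand use are not given in these sources. The series title marks it as superseded by a later deposit, which was not used here.

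Of 43346 Ensembl gene rows, 42462 matched GENCODE M21 (same assembly) by identifier without version, which gave types, names and coordinates. Members and gene lists were chosen with earlier results of these data known. Log2 ratios used a pseudocount of 0.1 TPM and a 2-fold limit in both libraries. The nearest protein-coding gene is that with the smallest gap among those with a row, overlap counting as 0. A quasi-likelihood fit needs more than 1 group, so libraries were compared with an exact conditional binomial test on rounded counts with TMM sizes, over genes with at least 10 counts summed, Benjamini-Hochberg adjusted over all of them (threshold 0.05), which covers counting error only. edgeR's exact test, an alternative, used a dispersion estimated from the same 2 libraries (biological coefficient of variation 0.0698) and is no independent check. Named genes are the 12 highest, those on the list of known lncRNAs, the 8 largest and 8 smallest ratios to an expressed neighbour (some of these are not reported here), the 8 closest head-to-head pairs, those beside limb regulators, small RNA hosts of at least 5 TPM, 3 on each side of the limit, and others where the text says so; the hosts under 5 TPM, the lowest listed genes and the genes in counts of 5 or fewer were named after their values were seen. Promoters and miRNAs came from RefSeq (GRCm38.p6). Tools were R 4.3.3, edgeR 4.0.16, DESeq2 1.42.0 (size factors only), Python 3.11.15, numpy 2.4.6, scipy 1.17.1 and pandas 2.3.3. Alternatives covered the limit, the unit, the pseudocount, the choice of neighbour, the start distance, scaling and count filters.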

Additional observations from a re-analysis of the deposited data

How the results depend on the processing

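Of 55 alternative values over all results, 45 stayed close to the reported value and 10 did not. Close means within 1.5 times a reported count, the spread of the libraries or the interval of a correlation. In every alternative on neighbours, more lincRNAs were below their neighbour than above it. The number of expressed lincRNAs ran from 152 at a limit of 2 TPM to 309 at 0.5 TPM, and was 246 or 237 from a single library. The median level was 2.06 as FPKM, 2.93 TPM with all counts on the longest transcript, 3.38 TPM without lincRNAs on coding exons, and 3.15 to 3.24 TPM in single libraries. The alternatives on the longest transcript, on coding exons and on transcript shares were chosen after seeing the data, as was a stricter promoter limit. Without lincRNAs on coding exons 90 of 157 were below their neighbour, a share of 57.3% against 65.0% of all 220. Above it were 43, a share of 27.4% against 21.8%. With the nearest expressed coding gene, 20 lincRNAs were above it in place of 48. Between the libraries the call count was 1 with at least 100 counts summed. It was also 1 by edgeR, whose dispersion came from the same 2 libraries. With no fold limit it was 24 (10.96% of lincRNAs against 16.1% of all genes), 18 higher and 6 lower in replicate 2. The split by direction over all genes at that setting is not given here, so the 18 and 6 cannot be called particular to lincRNAs. The median share of the highest transcript was 79.4% on the mean of both libraries and 74.6% to 77.5% in single ones. No paired analysis was possible because there is only 1 group. Of the 220, 8 had under 10 counts in either library and 93 had at least 100 in both.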
